A study of Mus musculus with 15 samples.

Results

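Resident nerve-associated macrophages of mouse ear skin were compared between punched and unpunched ears across all genes. The comparison used 6 of the 15 RNA-seq libraries of the series, chosen by title: 3 libraries titled sNAM (unpunched right ear, called unpunched here) and 3 titled sNAM after injury (punched left ear, injsNAM, called punched here). The other 9 libraries were of interstitial macrophages from unpunched (IM) or punched ears (injIM) and of recruited nerve-associated cells of the punched ear (recsNAM). They served only to estimate the spread, to show where a response differed and as a reference for dendritic cell markers. Every group carried CX3CR1-creERT2/gfp with R26-tdT/+, in which a tamoxifen-inducible Cre recombinase occupies 1 copy of Cx3cr1, green fluorescent protein (GFP) the other, and tdTomato is switched on by Cre. All mice received tamoxifen, the left ear was punched 3 weeks later, and the skin was collected 10 days after that. Resident cells were gated as CD11b+ CD64+ Lin- GFP+ Tomato+, so the groups share a genotype without an unmodified Cx3cr1 copy and the tamoxifen treatment. No source used here gives the age of the mice.

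Several points of the labels limit the comparison. The 15 libraries came from 3 mice, and no label ties a library to a mouse, so punched and unpunched libraries can share an animal while the tests treat them as independent. Their p-values then measure only the spread between these libraries. The reporter field gives GFP-/Tomato- for the unpunched libraries and GFP+/Tomato+ for the punched ones, against the sorting gate, and the genotype field names Cxcr1 in place of Cx3cr1. Groups were taken from the titles, and the reporter tag follows the treatment, so a difference in gate and the punch cannot be told apart.

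Nerve-associated macrophages of the skin lie along sensory nerve fibres, live long in the tissue and express the fractalkine receptor Cx3cr1. Macrophages take up debris after injury and break it down in lysosomes, acid compartments that hold proteases, glycosidases and lipases, while lipid freed there is carried out by apolipoproteins and transporters. Early after a stimulus they make interleukin-1, chemokines and the products of NF-κB, a transcription factor held in check by IκB proteins and A20-binding proteins that it also induces.

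The spread between replicate libraries was high in both groups. The recovered depth was 18.6, 5.64 and 9.09 M reads in unpunched replicates 1, 2 and 3 and 18.8, 16.9 and 19.5 M in the punched ones. Of the 8656 genes tested, 11.6%, 25.8% and 3.89% had no read in the unpunched libraries, and 4.26%, 6.77% and 8.79% had none in the punched libraries. Unpunched replicate 2 was thus the shallowest library and the one with most genes at 0. Brought to the depth of that library, the unpunched libraries had 9842, 8581 and 11888 genes detected and the punched ones 11479, 10187 and 9986. The median SD between replicates, on the log2(value + 100) scale, was 0.84 in the unpunched and 0.61 in the punched group, while that of IM was 0.19, that of injIM 0.20 and that of recsNAM 0.28. It fell with level, from 1.03 for genes with a mean of 100 to 500 normalized reads to 0.31 for genes above 10000 in the unpunched group, and from 0.84 to 0.26 in the punched group.

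**Figure D1:**
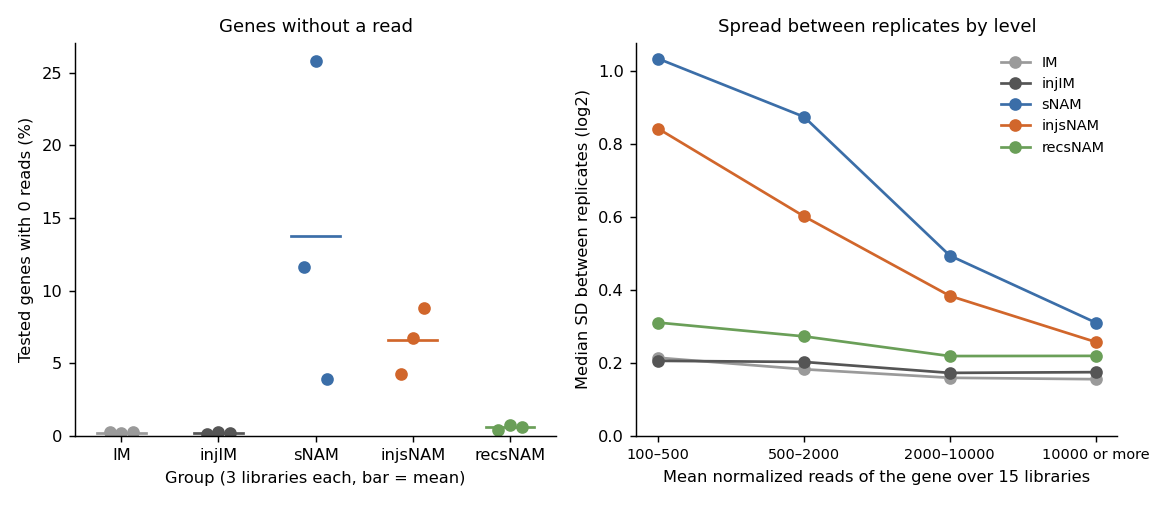
Left, percent of the 8656 tested genes with 0 reads in each library (point) with the group mean (bar); right, median SD between the 3 replicates of a group on the log2(normalized reads + 100) scale, by the gene's mean level. The unpunched (sNAM) libraries span 3.89% to 25.8%, and the SD of both resident groups lies above that of the other 3 groups at each level.

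Zeros reached well-expressed genes. Of the 4868 genes with a group mean of 500 normalized reads or more, 403 (8.28%) had an unpunched library at 0. In the punched group the count was 80 of 5074 genes (1.58%), and in each of IM, injIM and recsNAM it was 0. Across genes, the correlation of 2 unpunched libraries was 0.64 to 0.78, that of 2 punched libraries 0.76 to 0.77, and that of 1 library of each group 0.65 to 0.79, values that describe the libraries and share the same genes. The range for pairs from different groups thus overlapped that for replicates. Genes detected numbered 10764 ± 1930 (SD, n = 3) in the unpunched and 11433 ± 754 (SD, n = 3) in the punched libraries, with p = 0.8 in an exact two-sided permutation test, which cannot go below 0.1 with 3 against 3.

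With limma's moderated test on log2(normalized reads + 100), with 1 weight for each group, 0 of 8656 genes (0%) were called between punched and unpunched resident cells at a Benjamini-Hochberg adjusted p under 0.05. At an unadjusted p under 0.05 there were 448 higher genes (5.18% of those tested) and 138 lower genes (1.59%) in the punched ear. In 636 genes (7.35%) each punched library lay above each unpunched library, and in 406 genes (4.69%) each lay below, and these shares are the background for the gene lists. The median log2 difference of all tested genes was 0.14. The edgeR quasi-likelihood test on recovered reads, which estimates 1 dispersion for each gene from all 15 libraries, called 76 of 13678 genes higher (0.556%) and 35 lower (0.256%), of which 52.3% had a library at 0. Fitted on the 6 resident libraries alone, edgeR called 0, with 328 genes at an unadjusted p under 0.05.

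Because the spread fell with level, limma was also fitted to the 568 genes with a mean of 5000 normalized reads or more over the 6 libraries, a choice made after the data were seen. Of the 568, each punched library lay above each unpunched one in 55 and below in 72, larger shares than over all genes. In these abundant genes 5 were called higher (0.88%) and 5 lower (0.88%) in the punched ear, none of them with a library at 0. The higher genes named here were Ctsd and Ctsl, which encode lysosomal proteases, Apoe, which encodes the lipid carrier apolipoprotein E, and Rnf149, which encodes a membrane-bound RING ubiquitin ligase. The lower genes were Cxcl1, a neutrophil-attracting chemokine, Cd83, a surface glycoprotein of activated antigen-presenting cells, Tnip3, an A20-binding inhibitor of NF-κB, Etv3, an ETS-family repressor, and Lsp1, an actin-binding protein of leukocytes. These calls rest on few libraries: without unpunched replicate 1 the count was 0, without unpunched replicates 2 or 3 it was 4 and 4, and without punched replicate 1 it was 5. With the threshold at a mean of 2000 it was 1, the gene Lhfpl2. The mean in each threshold covers both groups, so a gene can pass through the group where it is high. The means of Rnf149 in the unpunched (3820), Lsp1 in the punched (3426) and Lhfpl2 in the unpunched group (805.7) lay below the threshold used. The calls of these genes are thus descriptions.

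**Figure D2:**
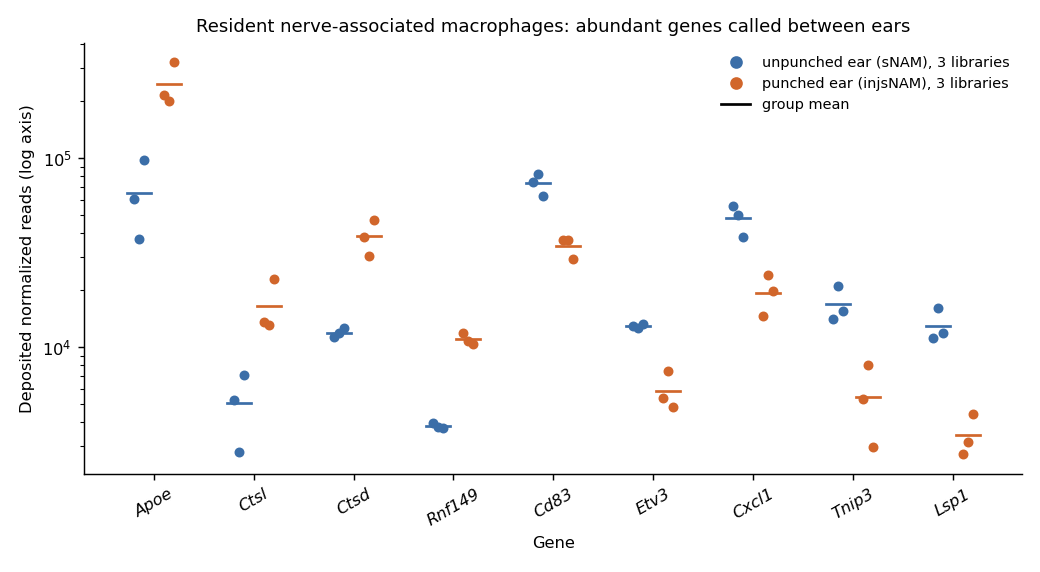
Normalized reads (log axis) of 9 of the abundant genes called by limma, in each of the 3 unpunched (blue) and 3 punched (orange) libraries, with the group mean as a bar. The groups do not overlap in any of the 9 genes; Ctsd lies between 11229 and 12669 in the unpunched and between 30457 and 47231 in the punched libraries.

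Ctsd, the aspartic protease cathepsin D (GRCm38, chr7:142375910-142387827), had 11229, 11795 and 12669 normalized reads in the unpunched libraries and 38224, 30457 and 47231 in the punched ones. The unpunched values were close together and each punched value was well above them. The ratio of means was 3.25, with a log2 difference of 1.67 ± 0.28 (SE) and a limma adjusted p of 0.00728 among abundant genes (0.553 among all genes). Ctsl, the cysteine protease cathepsin L (chr13:64361890-64370772), had 5251, 2792 and 7081 against 13614, 13018 and 22788 normalized reads, a log2 difference of 1.74 ± 0.37 (SE, limma adjusted p = 0.0191 among abundant genes and 0.553 among all genes). Its groups did not overlap either.

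Lysosomal genes as a list lay mostly higher in the punched ear. All 38 members were tested, 33 had a log2 difference above 0, and in 14 members (against 7.35% of all genes and 55 of 568 abundant ones) each punched library lay above each unpunched one, while 0 lay below. The median log2 difference of the list was 0.36 against 0.14 for all tested genes. Without unpunched replicate 2 the median was 0.41, and 16 members and 1019 of all 8656 genes lay above in each library. Of the members, 0 passed limma over all genes and 3 passed among the 23 abundant ones. The edgeR test on all 15 libraries, given as a description, called 3 higher and 0 lower.

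Among members that did not pass, Ctsb, the most abundant cathepsin here, had 98351, 88631 and 142200 normalized reads unpunched and 161391, 147925 and 189048 punched, so its groups did not overlap (log2 difference 0.62 ± 0.28, SE, limma adjusted p = 0.285 among abundant genes and 0.859 among all genes). Psap, the precursor of the saposins that help degrade sphingolipids, had 32248, 46427 and 33895 against 42065, 69950 and 58955, and its groups overlapped. Ctss, cathepsin S, differed little, with 44179, 30918 and 46243 against 45976, 46269 and 48519. Gaa, acid alpha-glucosidase, chosen here after its values were seen, had 1150, 0 and 1168 against 2133, 2601 and 2724, so its large log2 difference of 2.25 ± 0.72 (SE) holds an unpunched library at 0. The lowest member was Ctsf, cathepsin F, with 2377, 1802 and 871.5 against 1276, 0 and 486.4, a log2 difference of -1.94 ± 0.98 (SE, limma adjusted p = 0.756).

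Promoter sequence is shown for 1 called gene of each direction and for a member of the same list, with a textbook motif of lysosomal genes in the first pair and of NF-κB in the second, which is from the cytokine and chemokine list. Each line is part of the 250 bases before the RefSeq start site (GRCm38.p6), 5′ to 3′ on the gene's strand, with the motif in capitals. TCACGTGA, an E-box form known from lysosomal gene promoters that reads the same on both strands, is marked in Ctsd (chr7:142387889-142387956, minus strand) and in Mcoln1 (chr8:3500443-3500510, plus strand), which encodes a lysosomal calcium channel. GGANTTTCC, a core form of the NF-κB site searched on both strands, is marked in Cxcl1 (chr5:90891145-90891213, plus strand) and in its neighbour Cxcl2 (chr5:90903773-90903841, plus strand).
Ctsd: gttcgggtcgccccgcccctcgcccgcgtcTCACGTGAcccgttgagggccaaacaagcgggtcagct
Mcoln1: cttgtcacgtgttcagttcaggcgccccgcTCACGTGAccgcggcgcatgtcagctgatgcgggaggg
Cxcl1: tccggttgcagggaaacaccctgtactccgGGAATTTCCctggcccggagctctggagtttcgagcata
Cxcl2: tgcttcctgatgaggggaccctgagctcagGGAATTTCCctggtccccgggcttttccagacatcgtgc

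In windows from 250 bases before to 50 after the start, TCACGTGA stood in 5 of the 30 lysosomal promoters matched (16.7%), against 1.12% of all 27025 promoters and 2.51% of those of tested genes. The 5 genes were Ctsa, Ctsd, Atp6v0d1, Atp6v1a and Mcoln1. Having the letters did not go with a difference in each case: Mcoln1 had 2143, 2020 and 1993 normalized reads unpunched and 2564, 3016 and 1002 punched, with overlapping groups. GGANTTTCC stood in 4 of 17 cytokine and chemokine promoters (23.5%) and 6 of 20 promoters of the NF-κB list (30%), against 1.45% of all promoters and 1.7% of those of tested genes. GGANTTTCC also stood in 1 of the 30 lysosomal promoters (3.33%), that of Ctsl, which was called higher in the punched ear. The promoter of Tnfaip3 held both motifs. A match describes the letters only.

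Lipid-handling genes, the list that holds apolipoprotein E and genes of lipid-laden macrophages, lay higher in most members. Of 27 tested, 22 had a log2 difference above 0, and the median log2 difference was 0.50. In 6 each punched library lay above each unpunched one (against 7.35% of all genes), and in 1 (Cd9) each lay below (against 4.69%). Apoe (chr7:19696244-19701310) had 61030, 37275 and 97735 normalized reads unpunched and 217168, 200984 and 321869 punched. The groups did not overlap, the ratio of means was 3.77, and the log2 difference was 1.99 ± 0.37 (SE, limma adjusted p = 0.011 among abundant genes and 0.553 among all genes). Gpnmb, a lysosomal glycoprotein of lipid-laden macrophages, had 2033, 326 and 1075 against 6099, 4115 and 9318, without overlap, and did not pass limma over all genes (log2 difference 2.62 ± 0.86, SE, adjusted p = 0.561).

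Other lipid genes are named here after their values were seen. Fabp5, a fatty acid binding protein, had 1548, 1429 and 2178 normalized reads unpunched and 4476, 6417 and 6299 punched, and Plin2, a lipid droplet coat protein, had 3546, 3939 and 5780 against 8373, 11636 and 16977. Both groups of values were separate, and neither gene passed limma over all genes (adjusted p = 0.682 and 0.745). The most abundant member besides Apoe was Lgals3, the lectin galectin-3, which overlapped between the groups, with 58704, 54287 and 87563 against 66161, 73236 and 109156. Abca1, the cholesterol exporter, had 17373, 1636 and 8955 against 16844, 17273 and 15992, so its difference rests on the low value of unpunched replicate 2. Cd9, a tetraspanin, was lower, with 10828, 9734 and 9527 against 3920, 3796 and 5372.

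Most inflammatory and nearly all NF-κB genes had lower values in the punched ear. In the list of cytokines and chemokines, 16 of 24 tested members had a log2 difference below 0 and 8 above, with a median of -0.56. In 4 (Ccl3, Cxcl1, Il1b and Cxcl2) each punched library lay below each unpunched one (against 4.69% of all genes and 72 of 568 abundant ones), and in 0 above. Cxcl1 (chr5:90891245-90893121) had 55898, 50229 and 38050 normalized reads unpunched and 14529, 23927 and 19755 punched, without overlap. Its log2 difference was -1.32 ± 0.28 (SE, limma adjusted p = 0.0191 among abundant genes and 0.553 among all genes). Il1b, the cytokine interleukin-1β, had 150318, 203269 and 106870 against 59825, 72912 and 51830. These groups were separate as well, but the log2 difference of -1.28 ± 0.37 (SE) did not pass (limma adjusted p = 0.0979 among abundant genes).

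Cxcl2, a neutrophil chemokine encoded beside Cxcl1, had 74913, 74408 and 67166 normalized reads unpunched and 30633, 35012 and 47338 punched, without overlap (log2 difference -0.96 ± 0.32, SE, limma adjusted p = 0.174 among abundant genes). Il1rn, the antagonist of the interleukin-1 receptor, lay the other way, with 31338, 41505 and 38093 against 37353, 66134 and 50412 and overlapping groups. Ccl22, a chemokine for CCR4-bearing T cells, had 6908, 1697 and 5009 against 347.7, 1823 and 1.71, and the groups overlapped through punched replicate 2. Il12b, named after its values were seen, was read in unpunched replicates 2 and 3 only, at 1685 and 667.9.

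The NF-κB list lay below 0 in nearly all members. All 24 members were tested and read in all 6 libraries, and 17 were abundant. Of the 24, 23 had a log2 difference below 0, and in 9 each punched library lay below each unpunched one (against 4.69% of all genes and 72 of 568 abundant ones), with a median log2 difference of -0.48. Without unpunched replicate 2 the count was also 9, while that of all genes went from 406 to 898 of 8656, and the median of the list was -0.54. Tnip3 (chr6:65590398-65634040) had 14019, 20956 and 15533 normalized reads unpunched and 5291, 8013 and 2965 punched, a log2 difference of -1.71 ± 0.39 (SE, limma adjusted p = 0.0295 among abundant genes and 0.553 among all genes). Its SD was 3648 unpunched and 2527 punched, and all punched values lay below the unpunched ones. Nfkbia, the inhibitor IκBα, had 30714, 44323 and 43229 against 26273, 25850 and 31168 and overlapped narrowly (log2 difference -0.49 ± 0.29, SE, limma adjusted p = 0.449 among abundant genes).

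Tnfaip3, the ubiquitin-editing enzyme A20, had 30970, 18627 and 9592 normalized reads unpunched and 21448, 11592 and 14373 punched, so the groups overlapped widely. Bcl2a1d, a survival gene of the Bcl2 family, had 2407, 2698 and 1521 against 534.2, 816.8 and 399.9, without overlap. It belongs to a family of near-identical copies between which reads can be split, so its level is uncertain. Neither gene passed limma (adjusted p = 0.98 and 0.639 over all genes).

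**Figure D3:**
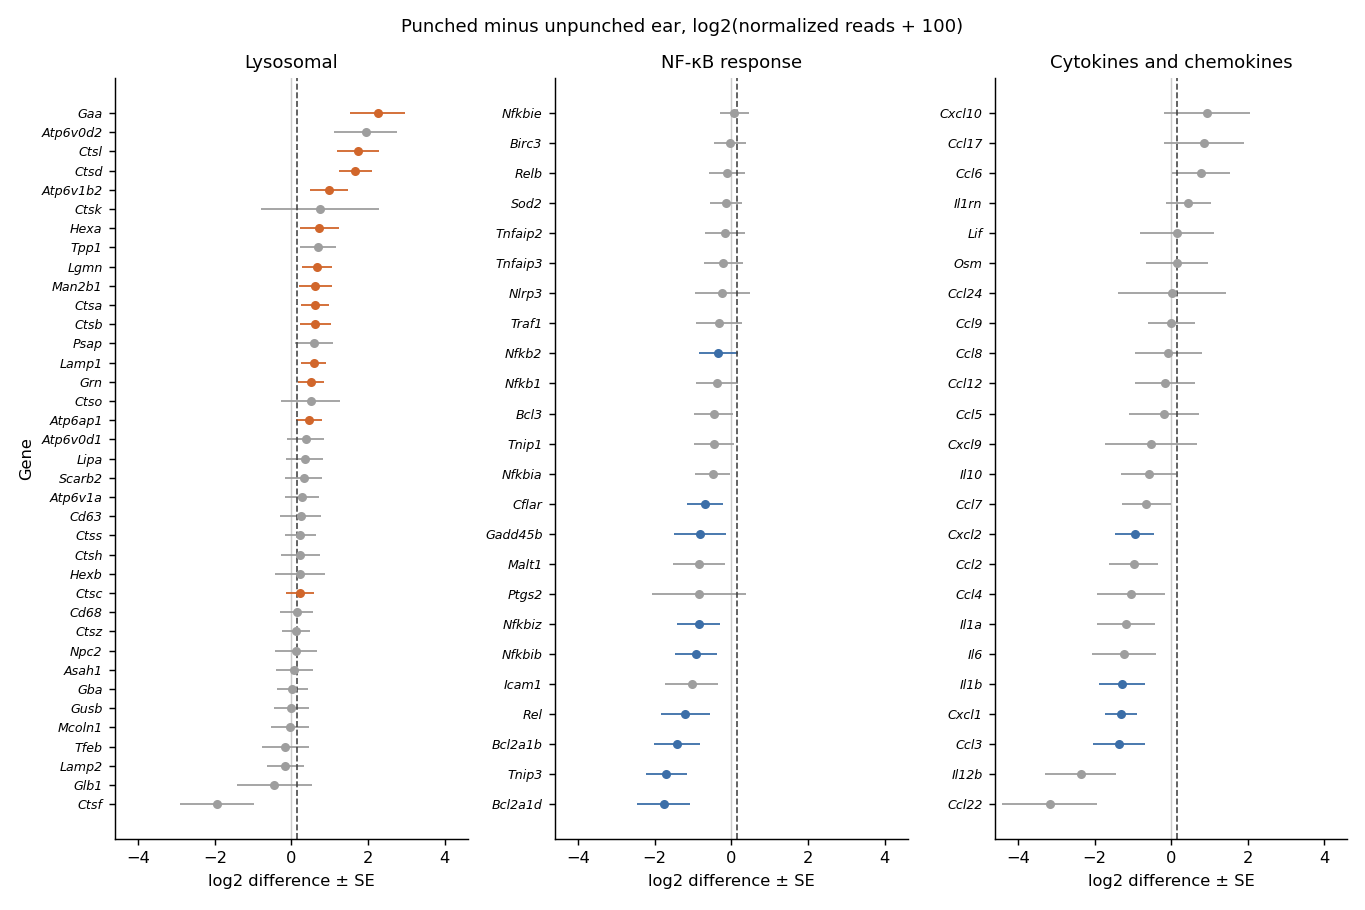
Log2 difference, punched minus unpunched, with its SE from limma over all tested genes, for tested members of the lysosomal, NF-κB and cytokine lists; orange and blue mark members in which each punched library lies above or below each unpunched one, and the dashed line is the median of all tested genes (0.14). No lysosomal member drawn is blue, while 9 NF-κB members and 4 cytokines are blue and none is orange. Over all tested genes 7.35% lie above and 4.69% below in this way.

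Immediate-early genes, which are transcribed within minutes of a stimulus and also respond to cell handling, lay mostly lower too. In 9 of 23 tested members each punched library lay below each unpunched one (against 4.69% of all genes and 72 of 568 abundant ones), in 0 above, and the median log2 difference was -0.46. Nr4a3, a nuclear receptor, had 5209, 5257 and 8837 normalized reads unpunched and 2481, 405 and 1788 punched. Ier2 had 5522, 6716 and 4476 against 3217, 1749 and 2934, and neither passed limma over all genes (adjusted p = 0.633 and 0.682). The abundant members overlapped or nearly did: Dusp1, a MAP kinase phosphatase, had 65017, 54002 and 47068 against 26224, 18205 and 49433. Fos and Egr1, named after their values were seen, had log2 differences of 0.22 and 0.01. The part that cell handling played in the NF-κB and cytokine values was not tested.

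Etv3 (chr3:87525577-87540158) stood out for its small spread, with 12850, 12645 and 13229 normalized reads unpunched and 5332, 7479 and 4816 punched, a log2 difference of -1.15 ± 0.27 (SE, limma adjusted p = 0.0329 among abundant genes and 0.59 among all genes). Rnf149 (chr1:39551294-39577439) was as even, with 3968, 3784 and 3706 against 11892, 10782 and 10365, a log2 difference of 1.5 ± 0.30 (SE, limma adjusted p = 0.0159 among abundant genes and 0.561 among all genes). Lsp1 (chr7:142458223-142494868) had 11097, 16010 and 11780 against 2699, 3147 and 4430, a log2 difference of -1.90 ± 0.41 (SE, limma adjusted p = 0.0201 among abundant genes and 0.553 among all genes). In these 3 genes the groups were separate by more than the range within either group. Rnf149 and Lsp1 passed the filter on abundance only through the group where they were high, so their adjusted p-values are descriptions.

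Of the genes of antigen presentation, 6 of 8 tested members had a log2 difference below 0, with a median of -0.44. In 3 each punched library lay below each unpunched one and in 1 above, against 4.69% and 7.35% of all genes. Cd83 (chr13:43785112-43803133) had 74985, 82006 and 63221 normalized reads unpunched and 36617, 36854 and 29277 punched, a log2 difference of -1.10 ± 0.27 (SE, limma adjusted p = 0.0365 among abundant genes and 0.624 among all genes). Cd74, which encodes the class II invariant chain, had 735649, 368636 and 551057 against 260334, 269879 and 276655: the punched libraries were within a narrow range and below all unpunched ones, which spanned a wide one (log2 difference -0.98 ± 0.42, SE, limma adjusted p = 0.264 among abundant genes). Cd40, a costimulatory receptor, had 3956, 3915 and 2133 against 802.7, 1414 and 319.4 and did not pass (adjusted p = 0.565 over all genes). The class II chains themselves have repeated entries and were not tested, and 8 of the 22 members of the list were tested.

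The migratory dendritic cell markers summed to 4560, 2384 and 3024 RPM (reads scaled to the library total) in the unpunched and 2107, 1223 and 867.5 in the punched libraries, and the conventional dendritic cell markers to 796.3, 1127 and 969.2 against 563.6, 692.8 and 431.9. In each list all punched sums lay below all unpunched ones, with p = 0.1 in an exact two-sided permutation test, the smallest that 3 against 3 allows. Ccr7 made up 41.8% of the migratory sum, and without it the sums were 2273, 1312 and 1728 RPM against 1414, 914 and 601.9, so the groups overlapped. Without Cd209a, its highest member, the conventional sum was 531.7, 923.7 and 493.5 against 434.5, 408 and 289.1, still without overlap. Of the tested members, 10 of 12 migratory and 7 of 12 conventional markers had a log2 difference below 0. None of the markers of either list was at 0 in all 6 libraries. Ccr7, the receptor that guides dendritic cells to lymph nodes, had 41050, 17585 and 21785 normalized reads unpunched and 11463, 5110 and 4440 punched, and Flt3, the receptor of the dendritic cell growth factor, had 1939, 3441 and 1660 against 682.1, 163.7 and 156.7. Both were separate between groups, and neither passed limma over all genes (adjusted p = 0.756 and 0.561). The sum of Langerhans cell markers was also lower in each punched library, at 1046, 652.4 and 593.3 against 191.2, 121.9 and 308.7 RPM, of which Gpr183 made up 55.3%. Of the 5 tested members of that list, 3 had a log2 difference below 0 and 2 above. Without Gpr183, which is also among the leading genes by p, the sums were 568.8, 142.1 and 191 against 68.1, 93.5 and 237.6, and the groups overlapped. The part these cells played in the values of Cd83, Cd74, Cd40 and the chemokines was not tested, and in bulk libraries fewer cells of a type and less RNA per cell cannot be told apart.

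**Figure D4:**
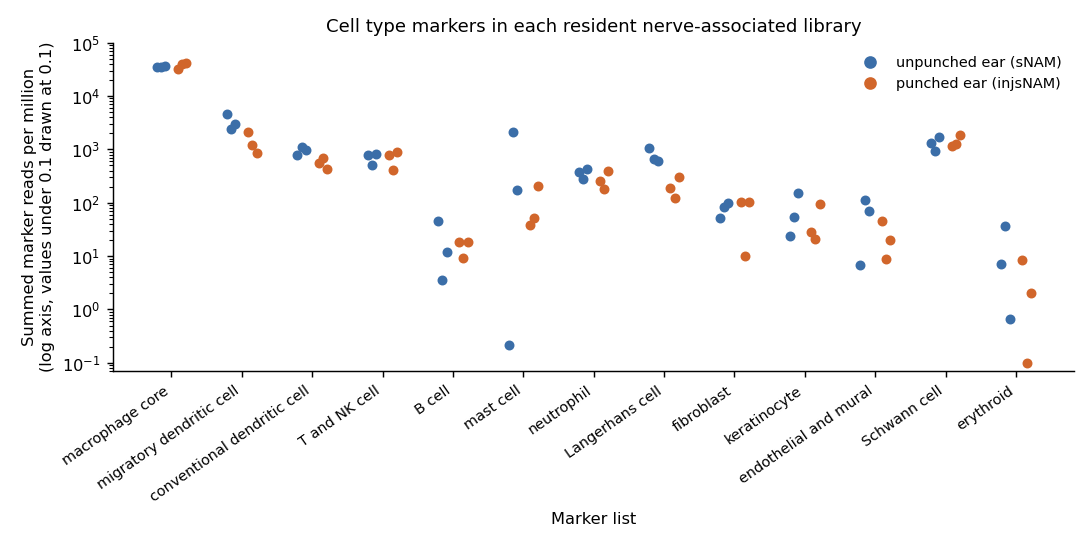
Summed RPM (reads scaled to the library total, log axis) of each marker list in each unpunched (blue) and punched (orange) library, with values under 0.1 drawn at 0.1. The macrophage core lies between 32410 and 41434 in all 6 libraries, the punched sums of the 2 dendritic cell lists and of the Langerhans list lie below all unpunched ones (for the migratory and Langerhans lists only with Ccr7 and Gpr183 counted), and the mast cell sum spans 0.215 to 2082 in the unpunched group.

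Core macrophage markers were high in both groups. The 24 core macrophage markers summed to 35628, 34520 and 36304 RPM unpunched and 32410, 39784 and 41434 punched, with 2 markers (Aif1 and Laptm5) listed at 0 in all 6 libraries. Csf1r, the receptor of the macrophage growth factor, had 48382, 51035 and 34142 normalized reads against 58589, 47645 and 41344, and Cd14, the lipopolysaccharide co-receptor, had 215755, 199592 and 158606 against 108236, 156748 and 150534. Csf1r overlapped between the groups and Cd14 was narrowly separate.

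Cx3cr1, the locus that carries both reporters, had 1.93, 0 and 27.8 normalized reads in the unpunched and 66.9, 0 and 0 in the punched libraries, too few for the filter, and as neither copy is unmodified its reads do not check the gate. Mast cell markers varied widely, at 0.215, 2082 and 170.5 RPM unpunched and 38.1, 52.5 and 201.6 punched: unpunched replicate 2 held most of them, with Cpa3, a mast cell protease, at 5324 normalized reads there against 0 and 220.2 in the other unpunched libraries. Schwann cell markers reached 922.8 to 1824 RPM, of which Pmp22 made up 96.2%, with Sox10 and Cdh19 at 0 in all 6 libraries. The T and NK cell, B cell, neutrophil, fibroblast, keratinocyte, endothelial and erythroid sums overlapped between the groups (exact p from 0.4 to 1).

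The microglia-like and nerve-associated genes showed no common direction. Of 19 tested, 9 had a log2 difference above 0 and 10 below, and the median of -0.13 became 0.38 without unpunched replicate 2. P2ry12, a purine receptor of microglia, had 448, 751 and 621.7 normalized reads unpunched and 1224, 837.4 and 1055 punched, without overlap but far from the threshold (limma adjusted p = 0.928 over all genes). Tmem119 overlapped, with 1096, 1234 and 309 against 597.6, 1093 and 1070. Both are named after their values were seen. Cst3, the protease inhibitor cystatin C and the most abundant member, had 34797, 29771 and 46774 against 13389, 17791 and 26756, without overlap (limma adjusted p = 0.297 among abundant genes).

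TGF-β signalling genes, from ligands and receptors to Smads and targets, did not share a direction either: of 29 tested, 12 lay above and 17 below 0, and the median was -0.06. In 3 each punched library lay above each unpunched one and in 1 below, against 7.35% and 4.69% of all genes. Among receptors, Tgfbr1 had 6560, 14671 and 2479 normalized reads unpunched and 4640, 6401 and 4995 punched, so the punched range lay inside the unpunched one. Among transducers, Smad1, which carries bone morphogenetic protein signals, had 1669, 1065 and 982.5 against 883.7, 290.2 and 374.2 and was separate. Among targets, Id3 had 425.8, 1196 and 699.4 against 1710, 2737 and 1676, also separate, and Tgfbi, an extracellular matrix protein, had 30375, 23815 and 18336 against 15246, 24810 and 15986 and overlapped. Of the 29 members, 0 passed limma at an adjusted p under 0.05, 0 did so at an unadjusted one, and edgeR also called 0.

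Receptors for apoptotic cells were mixed. Timd4, a phosphatidylserine receptor of resident macrophages, had 10899, 7924 and 12500 normalized reads unpunched and 3991, 1646 and 646.6 punched, without overlap (log2 difference -2.57 ± 0.93, SE, limma adjusted p = 0.191 among abundant genes). Itgb5, an integrin chain that binds the bridging protein Mfge8, had 776.5, 2224 and 1001 against 4182, 4791 and 5498, without overlap, and did not pass limma (adjusted p = 0.561 over all genes). Of the 18 tested members of that list, 4 lay above and 2 below in each punched library, against 7.35% and 4.69% of all genes. Perivascular genes had a median of -0.04 that became -0.55 without unpunched replicate 2, and Mrc1, the mannose receptor, had 13014, 8419 and 17803 against 20804, 10545 and 12538. Of 14 complement genes tested, 1 lay above and 2 below in each punched library, against 7.35% and 4.69% of all genes. C1qb differed little, with 48632, 53190 and 68557 against 47451, 58336 and 67852. C5ar1 had 28950, 25294 and 28943 against 14874, 20111 and 24589, without overlap (limma adjusted p = 0.378 among abundant genes).

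**Figure D5:**
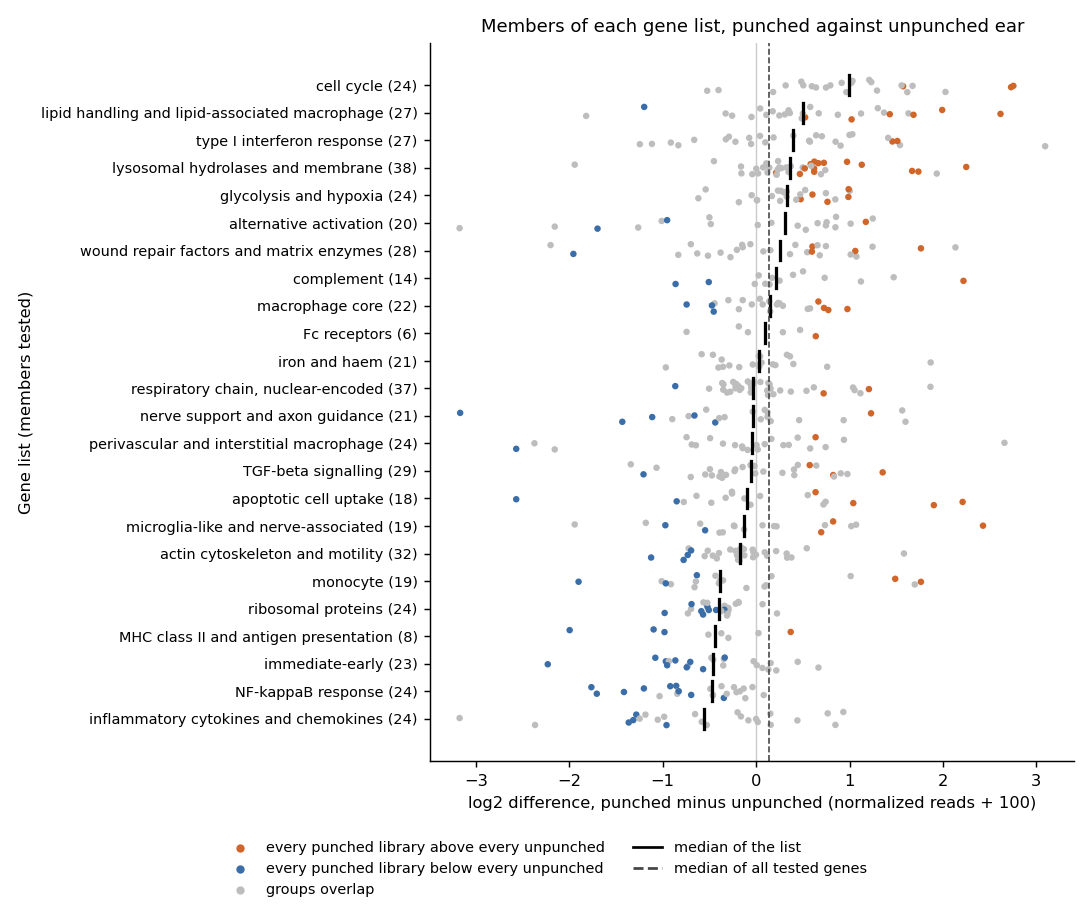
Log2 difference, punched minus unpunched, of each tested member of 24 gene lists (points; orange and blue mark members in which each punched library lies above or below each unpunched one), with the list median (black bar) and the median of all tested genes (dashed line, 0.14). Lists run from a median of -0.56 for cytokines and chemokines to 0.99 for the cell cycle, and the lysosomal list has 14 separate members above and 0 below. Over all tested genes 7.35% are separate above and 4.69% below.

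Among genes of wound repair, 4 of 28 tested lay above and 1 below in each punched library, against 7.35% and 4.69% of all genes, and the median was 0.26. Thbs1, the matrix protein thrombospondin-1, had 79520, 61483 and 7614 normalized reads unpunched and 112020, 133346 and 99031 punched: the groups were separate, and unpunched replicate 3 was far below its replicates (log2 difference 1.76 ± 1.18, SE, limma adjusted p = 0.538 among abundant genes). Vegfa, the vascular growth factor, had 9893, 8788 and 4948 against 10152, 11016 and 13690. Pdgfb, a growth factor for mural cells and fibroblasts, was lower, with 2304, 3828 and 2185 against 219.2, 1277 and 740.8, and none of the 3 passed limma over all genes.

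In the list of nerve support and axon guidance, 1 of 21 tested members lay above and 5 below in each punched library (against 7.35% and 4.69% of all genes), with a median of -0.04. L1cam, a neural cell adhesion molecule, had 1747, 375.5 and 1197 normalized reads unpunched and 0, 56.9 and 0 punched. Nrp2, a semaphorin co-receptor and the most abundant member, had 12960, 7487 and 6757 against 6215, 5659 and 4636, without overlap (limma adjusted p = 0.414 among abundant genes). Its relative Nrp1 lay the other way and overlapped, with 2430, 107.7 and 3436 against 3985, 2266 and 5249.

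Metabolic and growth lists differed in how far zeros entered. Glycolysis and hypoxia genes lay above 0 in 20 of 24 members, with 5 above and 0 below in each punched library (against 7.35% and 4.69% of all genes) and a median of 0.33. Hif1a, the oxygen-sensing transcription factor, named after its values were seen, had 4925, 6768 and 2903 normalized reads unpunched and 7979, 11726 and 8407 punched. Cell cycle genes had the highest median, 0.99, and 22 of 24 members above 0, but 5 of the 24 were read in all 6 libraries, and the median was 0.53 after quantile normalization. Ccna2, cyclin A2, was read in 0 of 3 unpunched libraries and at 426.9, 1149 and 366.5 in the punched ones, while Mki67 had 2401, 4128 and 1639 against 2192, 2267 and 1041. Type I interferon genes had a median of 0.40, of which 0.19 was left after quantile normalization, with 16 of 27 members read in all 6 libraries.

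Ribosomal protein genes, taken as a sign of RNA quality, lay below 0 in 22 of 24 tested members, with 8 below and 0 above in each punched library (against 4.69% and 7.35% of all genes) and a median of -0.40. Their share of reads was 0.622%, 0.660% and 0.892% unpunched and 0.425%, 0.623% and 0.632% punched, with overlap and p = 0.3 in an exact two-sided permutation test. The NF-κB and immediate-early lists thus had medians near that of the ribosomal list, and the part of RNA quality in them was not tested. The lysosomal and lipid lists lay on the other side of the median of all genes.

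The genes with the smallest p over all tested genes were mostly ones with a library at 0. Of the 15 leading higher genes whose groups did not overlap, 10 had an unpunched library at 0, and of the 15 leading lower genes 8 had a punched library at 0. Siglecg, an inhibitory receptor for sialic acid, came closest to the threshold among all 8656 genes, with 2627, 1004 and 1817 normalized reads unpunched and 0, 0 and 0.856 (1 read) punched, a log2 difference of -4.16 ± 0.70 (SE, limma adjusted p = 0.0957). Lhfpl2, a tetraspan membrane protein, had 1550, 2.91 and 864.1 against 7582, 5413 and 7944 (limma adjusted p = 0.125). Tlr7 and Tlr8, endosomal receptors for single-stranded RNA that lie side by side on the X chromosome, were read at 0.963, 2.91 and 592.1 against 1981, 1689 and 1393, and at 0, 0 and 112.9 against 697.1, 1133 and 1449.

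Of the leading genes, 5 of the higher and 7 of the lower were read in all 6 libraries. Lpcat2, an acyltransferase of phospholipid remodelling, had 362.3, 957.7 and 1064 normalized reads unpunched and 3949, 5396 and 2286 punched. Apod, the lipocalin apolipoprotein D, had 11827, 2864 and 7344 against 941.8, 366.7 and 434.2. Gpr183, an oxysterol receptor that guides migrating immune cells, had 8565, 8372 and 6763 against 2036, 469.7 and 1188. The 3 genes were separate between groups, with limma adjusted p = 0.553 for each over all genes and adjusted p of 0.0101, 0.00868 and 0.00868 in edgeR's quasi-likelihood test on all 15 libraries. Fitted on the 6 resident libraries alone, edgeR called 0 genes. On simulated data most edgeR calls on all libraries were of unchanged genes, so these edgeR values are descriptions.

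The response to the punch was set against that of interstitial macrophages through the difference of the 2 differences. Over all genes limma called 0 of 8656 (0%) at an adjusted p under 0.05, with 444 at an unadjusted p under 0.05, and edgeR's quasi-likelihood test called 7 of 13678 (0.0512%). Among the 568 abundant genes limma called 4 (0.704%): Clec4n, Il7r, Lsp1 and Bhlhe40. Lsp1 was 12963 ± 2662 (SD, n = 3) unpunched and 3426 ± 898 (SD, n = 3) punched in resident nerve-associated cells, and 1550 ± 135 and 1890 ± 446 (SD, n = 3 each) in interstitial cells (difference of log2 differences -2.15, limma adjusted p = 0.0344 among abundant genes). Clec4n, the lectin dectin-2, was 5782 ± 1144 and 10968 ± 1582 in resident nerve-associated cells and 12121 ± 454 and 9138 ± 971 in interstitial cells (difference 1.33, adjusted p = 0.0344 by limma). The count was 0 without any 1 of the 3 punched libraries or of unpunched replicates 1 and 2, and 5 without unpunched replicate 3. Lsp1 passed the filter on abundance through the unpunched group, and the part of dendritic cells in its values was not tested.

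For the other 8 genes named among the abundant calls, the difference between the populations did not pass (limma adjusted p from 0.121 to 0.972 among abundant genes), and their interstitial means differed in the same direction. Ctsd was 27535 ± 2307 in IM and 48112 ± 7807 in injIM (SD, n = 3 each), Apoe 134708 ± 7798 and 195719 ± 38195, Cxcl1 30430 ± 3012 and 14661 ± 1611, and Cd83 38649 ± 4869 and 17406 ± 1702. In unpunched skin Ctsd and Apoe thus had lower means in resident nerve-associated than in interstitial cells, and Cxcl1 and Cd83 higher means.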

How the data were processed

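Macrophages sorted from ear skin were measured by RNA-seq in 15 libraries, of which the 3 sNAM and 3 injsNAM libraries are compared here. Per the labels' protocols, 250 pg of RNA went into SMARTer v4 amplification (13 PCR cycles) and Nextera XT, so reads are not independent molecules. The authors used mm10 with STAR 2.7.2b, cutadapt, bcl2fastq 2.18, R 3.6.1 and DESeq2 1.24.0, per the submitters' processing notes. No source used here names the counter, the annotation or whether strand was used. Each deposited number is a signal, namely a read count over a factor that is constant within a library. All values were within 0.01 of whole multiples of 1 read, so reads were recovered (5636251 in the shallowest library). Of its 42454 entries, 36134 had a RefSeq symbol on GRCm38.p6. 1738 symbols are listed more than once and are uncertain.

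The principal test was limma 3.58.1 (R 4.3.3), trend and robust, on log2(deposited value + 100) for genes with a mean of 100 or more over 15 libraries, with 1 mean and 1 array weight per group (sNAM 0.175, injsNAM 0.311, IM 3.43, injIM 3.21, recsNAM 1.67) and Benjamini-Hochberg adjustment. The pseudocount makes log2 differences of low genes smaller. Alternatives used edgeR 4.0.16, DESeq2 1.42.0, voom, other scalings, filters and pseudocounts, single libraries left out and a replicate block. Count tests used recovered reads. On data simulated with each group's own spread, limma recovered few of the changed genes and most edgeR calls on all libraries were of unchanged genes, so a lack of limma calls does not show a lack of change and edgeR calls are given as descriptions. The gene lists, the members compared and the settings were chosen with earlier results of these data known. Named genes were the 15 higher and 15 lower genes of smallest p without overlap (leaving out repeated symbols, Gm and Rik symbols and pseudogenes), the 3 most abundant and 2 of smallest p in each list, Cx3cr1 and the abundant genes called. Others are marked in the text or are list members given by count. No 2 replicates agreed within read-sampling noise. Marker sums are RPM, computed from recovered reads. Deviations of same-numbered libraries correlated by less than 0.1 in each pair, and no label ties the numbers to animals, so numbers were not treated as pairs. Mitochondrial genes were not analysed here. Some items, among them 1 of the abundant genes called, are not reported here.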

Additional observations from a re-analysis of the deposited data

How the results depend on the processing

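Over all genes, limma called 0 genes between the ears with a pseudocount of 10, a filter at 500, TMM scaling, the 6 libraries alone or any 1 of the 6 libraries left out, and edgeR on the 6 libraries and voom also called 0. It called 4 with a pseudocount of 500, 4 without a filter, 4 after quantile normalization, 1 with sample weights, 2 with the 6 libraries' own filter and 10 among abundant genes. With 1 pooled spread the count was 363, with edgeR on all libraries 111 (109 with the deposited factors) and with DESeq2 1870, of which 73.8% had a library at 0; these fits share 1 spread per gene with the 3 groups of lower spread. For the difference between the populations the counts were 0 with limma, 6 without a filter, 1 with a pseudocount of 500, 4 with a pooled spread, 7 and 7 with edgeR and 4 among abundant genes.

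Among abundant genes the 10 calls became 1 at a mean of 2000, 67 with a pooled spread, 16 with the 6 libraries alone, and 0 to 7 with 1 library left out. With a replicate block the count was 0 over all genes (605 at an unadjusted p under 0.05, against 586 without it) and 18 among abundant genes. Same-numbered libraries correlated in their deviations by 0.0319, 0.0291 and 0.0559, each higher than with the other numbers, a hint from the data and not from the design. Of 1470 values for 67 genes named by the rule under the alternatives, 0 reversed and 180 passed a threshold that they missed in the limma test over all genes. At a filter of 500 the keratinocyte and endothelial lists had no tested member. The spread and the zeros in the unpunched group limit the precision of genes of low and middle level, and the part of the low depth of unpunched replicate 2 was not tested.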
